A study of Mus musculus with 4 samples.

Results

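The 10 genes described here encode the simple-epithelial keratins KRT7, KRT8, KRT18 and KRT19, the cytoplasmic filament proteins vimentin, desmin and nestin, and the nuclear lamins. They were taken by name from the intermediate filament family, each through the brightest probe set that names it alone, and they are 10 of 19938 named genes on the array. All 10 had 1 such probe set. The genes were chosen by name with their measured log2 values in view, both the brightness and the difference between Ctcfl and control arrays, so for these genes that comparison is a description. Counts of them past a threshold are given beside the share of all genes, and nothing rests on those counts.

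The study measured RNA from NIH3T3 cells, an established line of mouse embryonic fibroblasts, on 4 Affymetrix arrays. In the 2 Ctcfl samples the cells had been without doxycycline for 48 h, which switches on FLAG-tagged mouse Ctcfl in a Tet-Off system. In the 2 control samples they were kept in 2 µg/ml doxycycline, which represses it. Ctcfl encodes a testis-expressed paralog of the insulator protein CTCF. Both groups were the same stable clone, p19, with the integrated plasmids pBI-EGFP-FLAG-mCtcfl and pTA-N, so a single clone stands for the line and absence of the drug always coincided with induction. Nothing in the labels states that the replicates came from different cultures, so a p-value here refers to array-to-array spread that could be technical.

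Intermediate filaments are rope-like polymers that give cells and nuclei mechanical strength. Keratins form filaments only as pairs of a type II chain (KRT7, KRT8) with a type I chain (KRT18, KRT19), and KRT8 with KRT18 is the characteristic pair of simple epithelia. Vimentin is the typical filament protein of fibroblasts, desmin that of muscle, and nestin, which assembles together with vimentin, is known from neural progenitors. Lamins line the inner nuclear membrane: Lmna gives the A-type lamins by alternative splicing, and Lmnb1 and Lmnb2 give the B-type lamins.

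Ctcfl itself had values of 10.37 and 10.35 on the Ctcfl arrays, against 7.77 and 7.71 on the control arrays (log2 RMA values, the background-corrected, quantile-normalised array brightness of a probe set). It rose by a log2 change of 2.62 (SE 0.08, limma adjusted p = 5.38e-04), in the direction that the labels give. The Ctcfl values on the control arrays lay above the upper quartile of probe sets, 7.40 to 7.43. Whether they are expression or background was not tested. In all, 9 genes passed limma's adjusted p of 0.05, which is 0.0451% of those tested, 6 higher and 3 lower. The split was 7 higher and 2 lower after quantile normalisation of the gene values, and 16 higher and 15 lower after median centring. By limma 0 genes passed with any array left out (1329 to 1663 at an unadjusted p under 0.05) and 0 with the replicate number as a block (1468 unadjusted). The call of Ctcfl was lost there too, with limma adjusted p from 0.539 to 0.649 without an array and 0.071 with the block. The array number, 2 per group, limits the precision throughout.

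Of the fibroblast markers, 9 of 10 were bright or moderately bright, with Col1a2, a chain of type I collagen, the highest at a mean of 12.12 and Fap the lowest at 3.40. The 12 epithelial markers had means from 3.82 to 5.78, among them Epcam and Cdh1, the adhesion molecules that define epithelia. Epcam had 4.14 and 4.28 on the Ctcfl arrays and 4.25 on both control arrays, and Cdh1 had 4.66 on both Ctcfl arrays, against 4.57 and 4.68 on the control arrays. The lower quartile of probe sets lay between 4.09 and 4.12 and the median between 5.20 and 5.24 on each array. Probe sets differ in affinity and no detection calls were used, so these marks help to read brightness but do not order genes by abundance, and low values may be background.

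Krt8, the type II keratin of simple epithelia, had the largest difference of the 10 genes. Its log2 values were 6.46 and 6.41 on the Ctcfl arrays, against 6.06 and 5.66 on the control arrays. Both Ctcfl arrays were higher than both control arrays, by at least 0.35, while the control arrays lay 0.40 apart from each other and the Ctcfl arrays 0.05. The means were 6.44 ± 0.04 in Ctcfl cells and 5.86 ± 0.28 in control cells (SD, n = 2 each), a log2 difference of 0.58 or 1.49-fold. In these bulk samples, more cells with the transcript and more transcript per cell cannot be told apart.

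The size of the Krt8 difference depended on which control array was used: it was 0.78 without control replicate 1 and 0.38 without control replicate 2, against 0.55 and 0.60 when a Ctcfl array was left out. Of all genes, 94 (0.471%) had a difference as large as the 0.58 of Krt8 or larger, in either direction. The summed linear level of the 12 epithelial markers was 332 and 320 on the Ctcfl arrays, against 316 and 313 on the control arrays. Crb3, the gene with the largest difference in that list, was left out after the data were seen, which had to shrink the difference. Without it the sums were 296.5 and 277 on the Ctcfl arrays, against 281 and 283 on the control arrays. These groups overlapped, but nothing rests on that, given how Crb3 was chosen. The medians of the 12 markers overlapped as well, at 4.62 and 4.5 on the Ctcfl arrays, against 4.49 and 4.63 on the control arrays. Of the 12, 7 had a higher and 5 a lower mean in Ctcfl cells, with a median log2 difference of 0.03, and the groups did not overlap for 2, Crb3 and Grhl2, both higher (background 20.6%). The part of these markers in the Krt8 value was not tested. Crb3, an apical polarity protein, had 5.14 and 5.43 on the Ctcfl arrays and 5.10 and 4.87 on the control arrays, and Grhl2, a transcription factor of epithelia, had a log2 difference of 0.12 (SE 0.09). No epithelial marker passed limma's adjusted p, and 0 passed at an unadjusted p of 0.05.

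**Figure D1:**
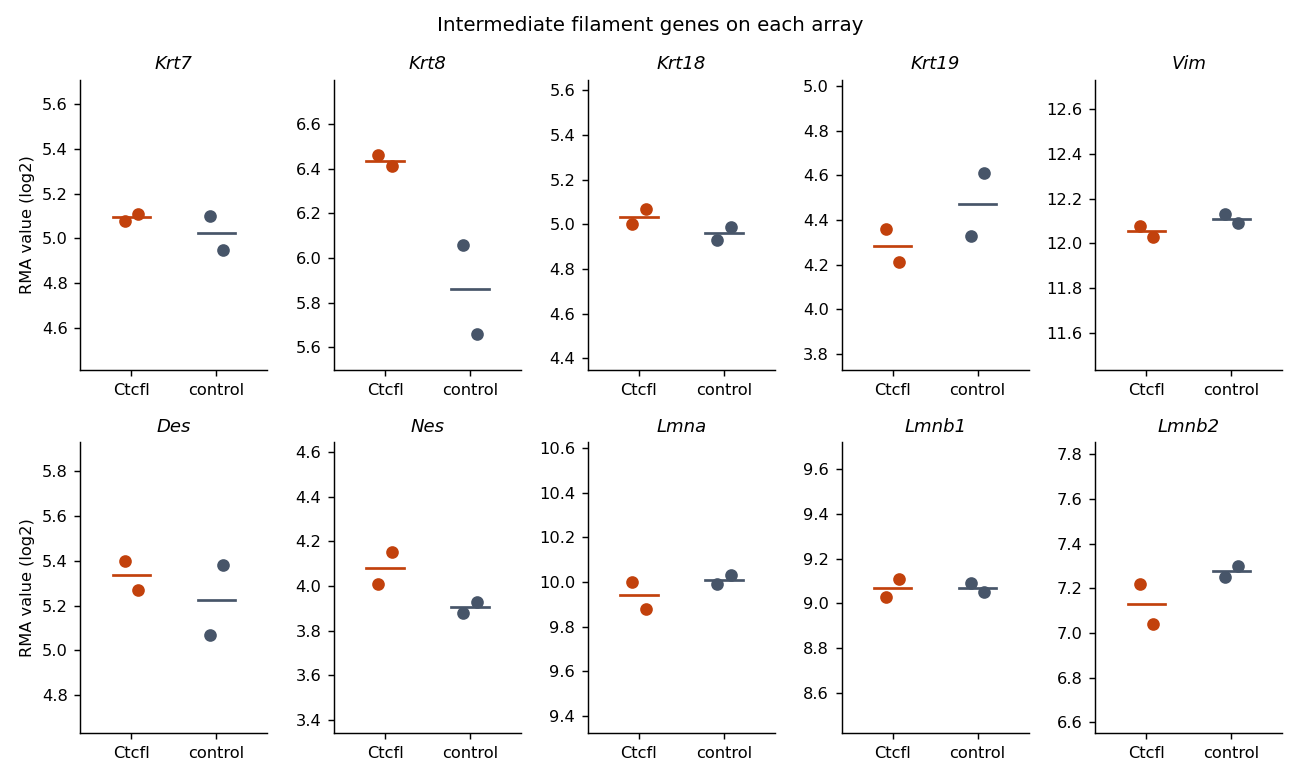
Log2 RMA values of the 10 filament genes. Each point is an array, the horizontal line is the mean of the 2 arrays of a group, and every panel spans the same height on its own log2 axis. Krt8 has the largest step, with Ctcfl arrays at 6.46 and 6.41 and control arrays at 6.06 and 5.66. Its groups lie 0.35 apart, less than the 0.40 between its control arrays. The points of Krt7, Krt19, Des, Lmna and Lmnb1 overlap between groups.

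Krt18, the type I partner with which KRT8 forms filaments, had values of 5.0 and 5.07 on the Ctcfl arrays, against 4.93 and 4.99 on the control arrays. The groups did not overlap, but they were separated by 0.01, the last digit of the deposited values, and the log2 difference was 0.08. The 2 partner genes therefore had differences of unlike size, 1.49-fold for Krt8 and 1.05-fold for Krt18. Whether they differ from each other was not tested, since both were chosen with these values known. Krt18 also lies below the arrays' median, where values may be background, and the size for Krt8 depended on which control array was used.

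Krt7, a type II keratin of glands and ducts, had 5.08 and 5.11 on the Ctcfl arrays, against 5.10 and 4.95 on the control arrays. Its groups overlapped, and the log2 difference of 0.07 was smaller than the gap of 0.15 between the control arrays. Krt19, a type I keratin without the usual tail domain, had 4.36 and 4.21 on the Ctcfl arrays, against 4.33 and 4.61 on the control arrays. Control replicate 2 stood above the other arrays, the groups overlapped, and the difference was -0.19. Of the 4 simple keratins, Krt8 thus had a difference larger than the gap within either group, Krt18 one of 0.08 beside gaps of 0.07 and 0.06, and Krt7 and Krt19 differences smaller than the larger of their own gaps.

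Krt8 and Krt18 are also neighbours in the genome. In the RefSeq annotation of GRCm38.p6, Krt8 is the last type II gene of the keratin cluster on chromosome 15 among the genes measured here, and the type I gene Krt18 follows it. Their promoters are shown because these adjacent genes encode a pair of chains and had unlike differences. Each sequence runs 5′ to 3′ on the gene's own strand, from 250 bases before to 50 bases after the start, as RefSeq places it (GRCm38.p6). Capitals mark matches to the TATA-box letters TATAAA, searched on both strands. Krt8 is at chr15:102004293-102004592 on the minus strand and Krt18 at chr15:102027966-102028265 on the plus strand.
Krt8: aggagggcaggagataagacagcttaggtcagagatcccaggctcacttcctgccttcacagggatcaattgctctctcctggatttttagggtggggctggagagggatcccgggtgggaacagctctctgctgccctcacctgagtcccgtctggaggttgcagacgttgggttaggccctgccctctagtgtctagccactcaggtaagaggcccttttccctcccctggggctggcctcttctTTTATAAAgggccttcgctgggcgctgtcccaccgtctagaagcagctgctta
Krt18: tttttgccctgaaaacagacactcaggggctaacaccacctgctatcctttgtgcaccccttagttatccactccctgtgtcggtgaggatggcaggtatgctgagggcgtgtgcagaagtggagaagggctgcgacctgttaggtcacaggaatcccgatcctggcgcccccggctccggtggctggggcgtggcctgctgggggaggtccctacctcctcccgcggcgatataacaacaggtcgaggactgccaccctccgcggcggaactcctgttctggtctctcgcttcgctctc

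The Krt8 window held TATAAA on both strands, as overlapping matches that share letters, and the Krt18 window held none. The Krt8 matches begin at base -3 (opposite strand) and base -1 (same strand), so they span the start that RefSeq gives. Neither window held the core consensus of the CTCF motif on either strand, so none is marked. Of all 32851 promoter windows of this length in the table, 13.6% held TATAAA and 0.557% held the CTCF core consensus. Promoter windows were given for 8 of the 10 genes, with a second window each for Lmna and Lmnb2. Among these 8 genes TATAAA was found for Krt8 and Vim, and the CTCF core consensus for 0. GGGCGG (a GC box) was found on either strand for 5 of them, Krt7, Des, Nes, Lmna and Lmnb2. For Lmna and Lmnb2 it was in 1 window and not in the other. Of all windows 35.7% held it, a share of windows and not of genes. GC content was 58.0% for Krt8 and 61.3% for Krt18, against a median of 52.7% over all windows. A match is a feature of the sequence and not a measured binding site, and no match says only that these letters are not in the window.

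The measured genes around Krt8 were looked at after the Krt8 value was seen. Krt79, the second measured keratin before Krt8, had 4.80 and 4.90 on the Ctcfl arrays, against 4.60 and 4.57 on the control arrays, a log2 difference of 0.27 (SE 0.09, limma adjusted p = 0.402). Krt78, the keratin gene next to Krt8, had 4.72 and 4.63 on the Ctcfl arrays, against 4.54 and 4.53 on the control arrays. The groups did not overlap for either, but neither passed. On the other side, beyond Krt18, the translation factor gene Eif4b had a log2 difference of -0.07 and the focal adhesion gene Tns2 one of 0.23. Farther along, Igfbp6, a binding protein of insulin-like growth factors, had 10.78 and 10.65 on the Ctcfl arrays and 10.45 and 10.43 on the control arrays. Of the 9 neighbours shown, 5 had both Ctcfl arrays above both control arrays, beside 20.6% of all genes, and 1, Eif4b, had both below.

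**Figure D2:**
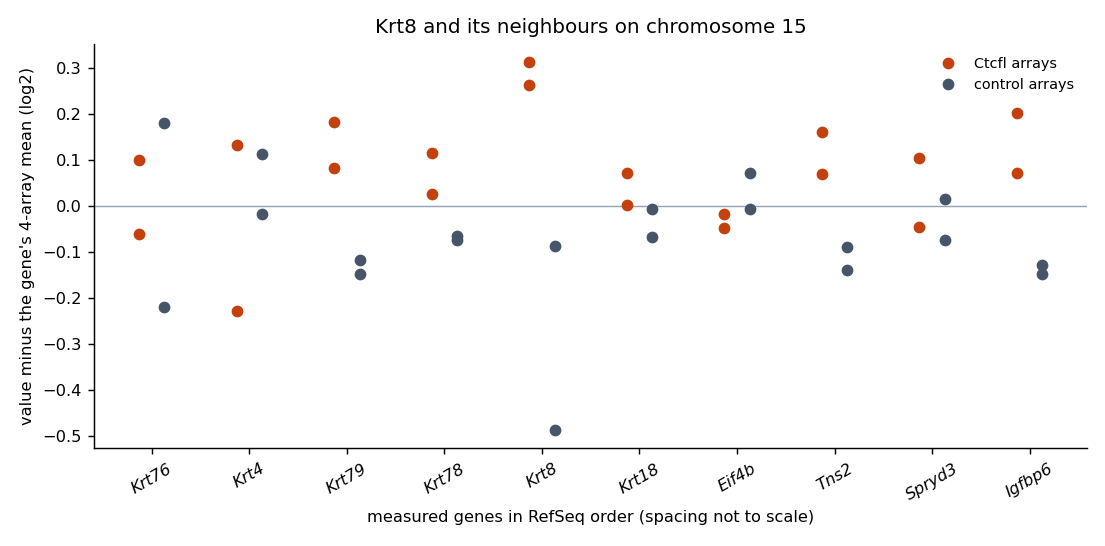
Measured genes around Krt8 on mouse chromosome 15, in RefSeq order with spacing not to scale. Each point is an array's log2 RMA value minus the gene's mean over the 4 arrays, with Ctcfl arrays left of control arrays. Krt8 has the widest step, with a gap between its control arrays as wide as that of Krt76, and its neighbour Krt18 lies near 0 on all 4 arrays.

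The genes for the filament proteins of mesenchymal, muscle and neural cells had small differences. Vim, the vimentin gene and the brightest of the 10 probe sets, had 12.08 and 12.03 on the Ctcfl arrays, against 12.13 and 12.09 on the control arrays. Both Ctcfl arrays were lower, by 0.01, and the log2 difference was -0.06 or 1.04-fold. Des, the desmin gene, had 5.40 and 5.27 on the Ctcfl arrays, against 5.07 and 5.38 on the control arrays. Its groups overlapped, with control replicate 1 below the other arrays, and leaving out that array turned the difference of 0.11 to -0.05.

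Nes, the nestin gene, had 4.01 and 4.15 on the Ctcfl arrays, against 3.88 and 3.93 on the control arrays. Both Ctcfl arrays were higher, by at least 0.08, and the log2 difference was 0.18 or 1.13-fold. These values lie around the lower quartile of the arrays, where distance from background is not known. The 12 muscle markers had means from 4.18 to 6.64, with the muscle regulator Myod1 at 5.29 and 5.34 on the Ctcfl arrays and 5.14 and 5.39 on the control arrays. By limma 0 of the 12 passed the adjusted threshold and 2 passed at an unadjusted p under 0.05, both higher (background 5.36%): Ttn, the giant sarcomere protein titin, with a log2 difference of 0.24 (SE 0.08), and Myh11, a smooth muscle myosin, with 0.24 (SE 0.09). Of the 12 muscle markers, 7 had a higher and 5 a lower mean in Ctcfl cells, with a median log2 difference of 0.03. The regulators Myog, Myf5 and Myf6 were among the lower ones, with differences of -0.10, -0.18 and -0.14. The summed linear level of the muscle markers was 539 and 543 on the Ctcfl arrays, against 516 and 541 on the control arrays, and its part in the Des value was not tested.

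Of the 9 measured neural progenitor and glial markers, Tubb3, a neuronal tubulin, had the smallest unadjusted p, with 5.04 and 5.33 on the Ctcfl arrays against 5.57 and 5.52 on the control arrays, a log2 difference of -0.36 (SE 0.12, limma adjusted p = 0.399). Of these 9 markers 6 had a higher and 3, Tubb3 among them, a lower mean in Ctcfl cells, with a median log2 difference of 0.03. The summed linear level of these markers was 312 and 292 on the Ctcfl arrays, against 298 and 305 on the control arrays, so the groups overlapped. The neural progenitor factor Sox2 had 4.44 and 4.63 on the Ctcfl arrays and 4.56 and 4.42 on the control arrays, and Sox1 had a difference of 0.10 (SE 0.09).

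The lamin genes were bright and nearly level. Lmna had 10 and 9.88 on the Ctcfl arrays, against 9.99 and 10.03 on the control arrays, and the groups overlapped with a log2 difference of -0.07. Lmnb1 had 9.03 and 9.11 on the Ctcfl arrays, against 9.09 and 9.05 on the control arrays, so that both groups averaged 9.07. Lmnb2 had 7.22 and 7.04 on the Ctcfl arrays, against 7.25 and 7.30 on the control arrays. Both Ctcfl arrays were lower for Lmnb2, by 0.03 for the nearer one, and the difference of -0.15 was smaller than the gap of 0.18 between the Ctcfl arrays. The A-type and B-type lamin probe sets thus differed by at most 1.11-fold between groups.

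Taken as a family, 5 of the 10 genes had a higher mean and 4 a lower mean in Ctcfl cells, with Lmnb1 equal, beside 49.9% of all genes higher and 48.6% lower. The median log2 difference was 0.04, against 0.00 over all genes, and the median size was 0.09, against 0.10 over all genes. For 5 of the 10 genes, Krt8, Krt18, Nes, Vim and Lmnb2, the groups did not overlap, beside 41.1% of all genes. A difference of at least 1.2-fold was measured for 1 of them, Krt8, beside 8.81% of all genes. By limma 0 of the 10 passed the adjusted threshold (1 at an unadjusted p under 0.05, beside 10.7% of all genes). These shares stand beside the counts as background, since the comparison was used to choose the genes.

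**Figure D3:**
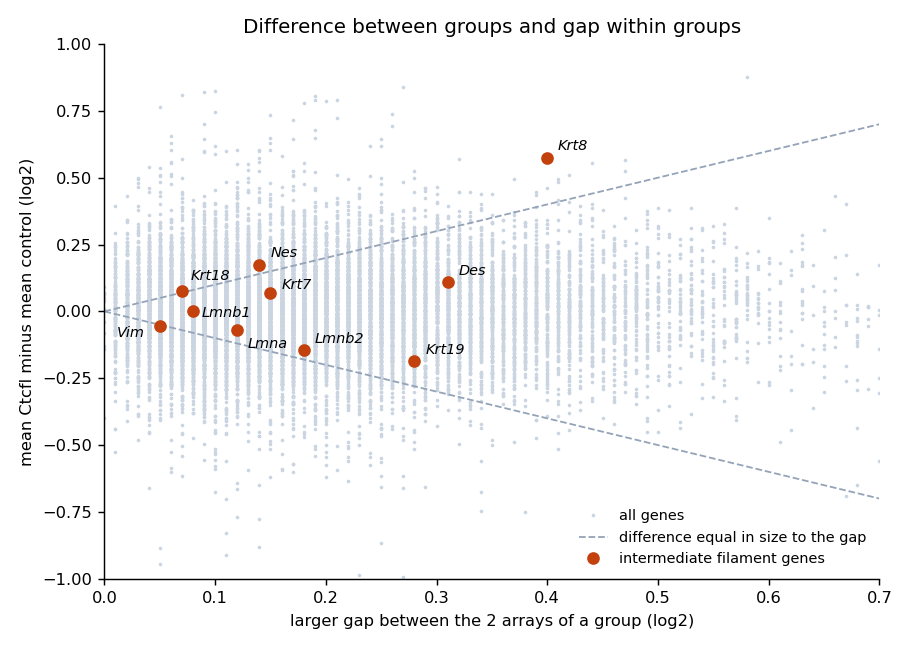
Log2 difference between group means (Ctcfl minus control) against the larger of the gaps between the 2 arrays of a group, for all genes (grey, shown up to a gap of 0.7 and a difference of 1 in size) and the 10 filament genes (orange). Beyond the dashed lines the difference exceeds the gap, which holds for Krt8, Krt18, Nes and Vim. For Krt18 and Vim the excess is smaller than the last digit of the deposited values. The share of all genes beyond the lines was not counted, so nothing rests on these 4. Krt8 lies apart from the other 9, which all differ by less than 0.2.

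By the fixed rule, the genes whose 4 array values followed those of Krt8 most closely were 1700109H08Rik, Bahd1 and Gm4371, with Euclidean distances of 0.09, 0.16 and 0.17 between values centred on each gene's mean. In all 3, as in Krt8, control replicate 2 was the lowest array. 1700109H08Rik had 5.22 and 5.14 on the Ctcfl arrays, against 4.90 and 4.49 on the control arrays. Bahd1, which encodes a heterochromatin protein, had 7.34 and 7.15 on the Ctcfl arrays, against 6.87 and 6.62 on the control arrays. Likeness over 4 arrays among 19938 genes is a description only.

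The rest of the filament family was read from lists of keratins and other filament genes. Of 59 listed genes 56 were measured, 30 with a higher and 25 with a lower mean in Ctcfl cells and a median log2 difference of 0.04. By limma 0 of these passed the adjusted threshold, and 6 passed at an unadjusted p under 0.05, 4 higher (background 5.36%) and 2 lower (background 5.32%). Among 21 other type II keratins, Krt6a, an inducible keratin of stressed or proliferating epidermis, had 3.70 and 3.65 on the Ctcfl arrays, against 4.04 and 4.13 on the control arrays. Both Ctcfl arrays were lower, with a log2 difference of -0.41 (SE 0.09, limma adjusted p = 0.263). The hair keratin gene Krt84 had a difference of 0.34 (SE 0.10, adjusted p = 0.356) and Krt87 one of 0.28 (SE 0.08, adjusted p = 0.383). Krt6a and Krt84, at means of 3.88 and 4.21, lie around the lower quartile of the arrays, where distance from background is not known. Krt80, the brightest of that list, had 6.95 and 7.05 on the Ctcfl arrays and 6.89 and 6.85 on the control arrays.

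Among 25 other type I keratins, Krt13, a keratin of mucosal epithelia, had 4.59 and 4.63 on the Ctcfl arrays, against 4.37 and 4.38 on the control arrays, a difference of 0.24 (SE 0.08, limma adjusted p = 0.426). Krt24 had -0.22 (SE 0.09, adjusted p = 0.458) and Krt39 had 0.20 (SE 0.08, adjusted p = 0.474). Their means of 3.98 and 4.03 lie near the lower quartile as well. The 46 other keratins had means from 3.66 to 6.94, a range that also holds the means of Krt7, Krt8, Krt18 and Krt19. Among 10 other type III, type IV and lens filament genes, Synm, whose product synemin bridges desmin or vimentin filaments to other structures, had 4.98 and 4.86 on the Ctcfl arrays, against 4.76 and 4.66 on the control arrays (difference 0.21, SE 0.09, limma adjusted p = 0.484). The lens filament genes Bfsp1 and Bfsp2 had 0.26 and -0.17, and neither passed.

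**Figure D4:**
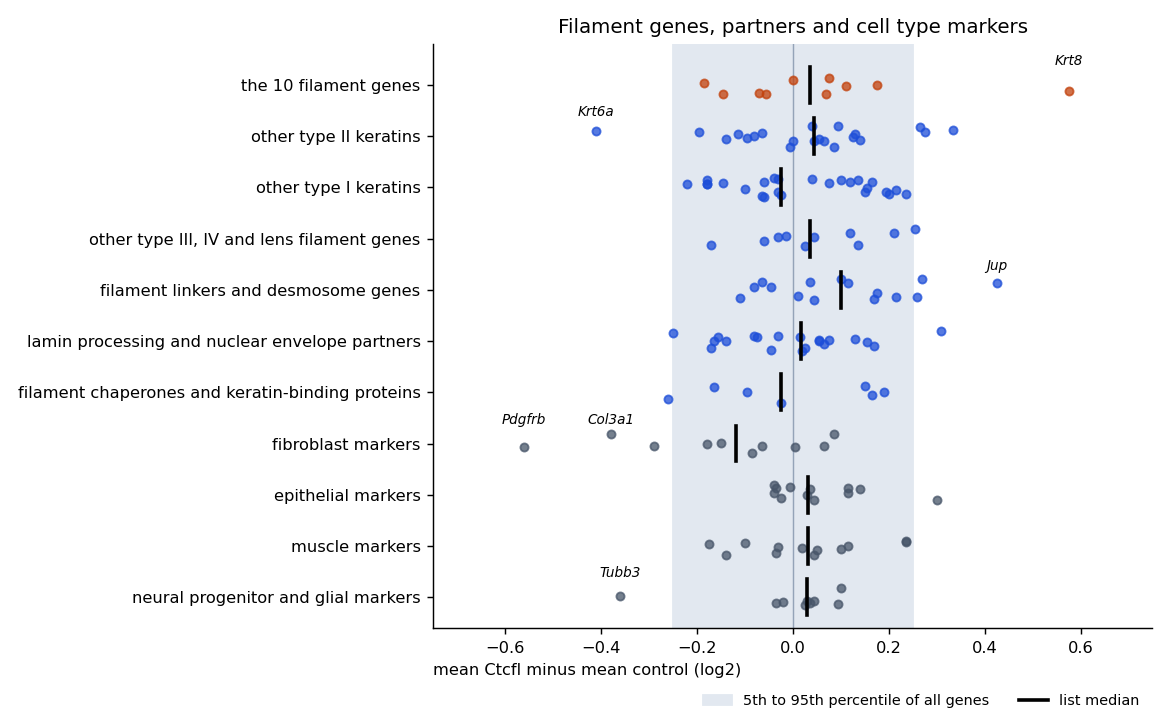
Log2 difference between group means (Ctcfl minus control) for each measured gene of the 10 filament genes and the other lists. Points are genes (vertical scatter only separates them), black bars are list medians and the shaded band runs from the 5th to the 95th percentile of all genes, -0.25 to 0.25. Krt8 lies to the right of every other gene drawn, at 0.58, and Jup follows at 0.43, while Pdgfrb is the lowest at -0.56.

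Filaments reach the cell surface and the cytoskeleton through linker proteins and desmosomes, the junctions on which keratins are anchored. Of 15 such genes, all measured, 11 had a higher and 4 a lower mean in Ctcfl cells, with a median log2 difference of 0.10, against 0.00 over all genes. The medians of the 15 genes overlapped between groups, at 5.21 and 4.93 on the Ctcfl arrays, against 5.0 and 5.07 on the control arrays. Their summed linear levels did not overlap, at 2790.5 and 2695.1 on the Ctcfl arrays, against 2499.7 and 2506.8 on the control arrays. For 8 of the 15 both Ctcfl arrays were above both control arrays, beside 20.6% of all genes. By limma 0 passed the adjusted threshold and 4 passed at an unadjusted p under 0.05, all of them higher (background 5.36%). Jup, which encodes plakoglobin, a plaque protein of desmosomes and adherens junctions, had 7.30 and 7.23 on the Ctcfl arrays, against 6.81 and 6.87 on the control arrays. Both Ctcfl arrays lay above both control arrays, and the log2 difference was 0.43 or 1.34-fold (SE 0.09, limma adjusted p = 0.258). With an intensity trend and robust variances, a setting that called 2.40% of all genes, Jup passed (adjusted p = 0.0189 by limma).

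Pkp4, an armadillo-repeat protein of cell junctions, had 8.69 on both Ctcfl arrays, against 8.42 and 8.44 on the control arrays (difference 0.26, SE 0.08, limma adjusted p = 0.387). Ppl, the cross-linker periplakin, had 4.87 and 4.83 on the Ctcfl arrays, against 4.49 and 4.67 on the control arrays (difference 0.27, SE 0.10, adjusted p = 0.433). The fourth was Dst, the spectraplakin dystonin, with a difference of 0.22. Plec, the plectin gene, which links vimentin and keratins to actin and to adhesion sites, had 9.75 and 9.65 on the Ctcfl arrays and 9.64 and 9.69 on the control arrays, and Dsp, the desmoplakin gene that anchors keratins to desmosomes, had a difference of 0.12. The 4 genes with a lower mean were Perp, Evpl, Dsc2 and Eppk1, with differences of -0.11, -0.08, -0.07 and -0.05. For Perp both Ctcfl arrays were lower. The desmosomal cadherin gene Dsg2 had a difference of 0.01. Dsg2, Dsc2, Perp, Dsp and Ppl had means from 4.04 to 4.72, below the arrays' median, where values may be background. Dst, Plec, Dsp, Perp, Evpl, Dsc2, Eppk1 and Dsg2 were named after their values were seen.

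Lamins are processed by prenylation and cleavage and bind partners in the nuclear envelope. Of 20 such genes, all measured, 11 had a higher and 9 a lower mean, with a median log2 difference of 0.02. By limma 0 passed the adjusted threshold and 1 passed at an unadjusted p under 0.05, a higher one (background 5.36%). This was Fnta, the shared alpha subunit of the enzymes that attach farnesyl and geranylgeranyl groups, with 8.56 and 8.54 on the Ctcfl arrays, against 8.27 and 8.21 on the control arrays. The groups did not overlap, with a log2 difference of 0.31 (SE 0.08, limma adjusted p = 0.348). With an intensity trend and robust variances, which called 2.40% of all genes, Fnta passed (limma adjusted p = 0.0260). Fntb, the beta subunit of the farnesyltransferase, had 6.30 and 6.27 on the Ctcfl arrays and 6.47 and 6.26 on the control arrays.

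Rce1, the protease that trims prenylated proteins, had 7.78 and 7.51 on the Ctcfl arrays, against 7.89 and 7.90 on the control arrays (difference -0.25, SE 0.11, limma adjusted p = 0.488). Lbr, the lamin B receptor of the inner nuclear membrane, had 10.17 and 10.11 on the Ctcfl arrays, against 10.31 on both control arrays (difference -0.17, SE 0.08, adjusted p = 0.519). Zmpste24, the protease that matures prelamin A, had a difference of 0.17, and Emd, the lamin-binding protein emerin, one of 0.08. Fntb, Zmpste24 and Emd were named after their values were seen.

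Of 7 filament chaperones and keratin-binding proteins, 3 had a higher and 4 a lower mean, and by limma 0 passed either the adjusted threshold or an unadjusted p of 0.05. Fbf1, a keratin-binding protein of junctions and centrioles, had a log2 difference of -0.26 (SE 0.11) and Tchp, the keratin-binding protein trichoplein, one of 0.19 (SE 0.09). Krtcap2, listed for its name as a keratinocyte-associated protein and known as a subunit of the oligosaccharyltransferase, had -0.17 (SE 0.10). The desmin and vimentin chaperone Cryab had 8.01 and 8.05 on the Ctcfl arrays and 8.10 and 8.15 on the control arrays.

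Fibroblast markers other than filaments lay lower in part. The summed linear level of the 10 markers was 12224 and 11706 on the Ctcfl arrays, against 12693 and 12616 on the control arrays. Of the 10, 3 had a higher and 7 a lower mean in Ctcfl cells, with a median log2 difference of -0.12. The groups did not overlap for 8 of them, 6 lower and 2 higher (background 41.1% in either direction). The 2 higher ones were Col1a1 and Ddr2, with differences of 0.07 and 0.09. By limma 0 passed the adjusted threshold and 3 passed at an unadjusted p under 0.05, all lower (background 5.32%): Pdgfrb, Col3a1 and Pdgfra. Pdgfrb, a receptor for platelet-derived growth factor, had 8.34 and 8.25 on the Ctcfl arrays, against 8.80 and 8.91 on the control arrays. Col3a1, a chain of type III collagen, had 7.56 and 7.48 on the Ctcfl arrays, against 7.87 and 7.93 on the control arrays. The vimentin difference was -0.06, and Thy1, a surface marker of fibroblasts, had 10.04 and 10.03 on the Ctcfl arrays and 10.01 and 10.05 on the control arrays.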

How the data were processed

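Total RNA of 4 samples, 2 Ctcfl and 2 control, was labelled with biotin and hybridised to Affymetrix arrays. Per the labels, the authors derived the deposited log2 values by RMA in Expression Console, whose version and settings are not given in the sources used here. Of 35512 probe sets 1 had no value. Platform annotation of 2016 gave 1 symbol for 21789 probe sets, several for 1621 and none for 12101, and 21698 matched RefSeq (GRCm38.p6) by gene identifier. Each gene was represented by its brightest probe set. The test was limma 3.58.1 under R 4.3.3 (eBayes after lmFit, two-sided, Benjamini-Hochberg over 19938 genes, threshold 0.05), without a filter on dim genes. The test was tried on simulated data.

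The 10 genes, the 10 other lists, the tests and the alternatives were chosen with earlier results of these data known. Named genes were the 10, Ctcfl and Ctcf, the 3 (2 for marker lists) with the smallest unadjusted p per list where none passed, and the 3 nearest to Krt8. Other names were chosen after their values were seen. Ctcf had a log2 change of -0.16 (limma adjusted p = 0.537). Krt81, Krt83, Krt85 and 1 marker gene were not analysed here. Promoters came from RefSeq (GRCm38.p6). Alternatives were a fit over all probe sets, a replicate block, robust variances with an intensity trend (statmod 1.5.0), quantile normalisation, averaging of a gene's probe sets, dropping the dimmest 33.3% of genes, dropping each array and median centring. Figures were drawn with matplotlib 3.10.9.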

Additional observations from a re-analysis of the deposited data

How the results depend on the processing

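Against 9 genes passing over all genes, limma called 31 after median centring, 20 without the dimmest 33.3% of genes, 479 with robust variances and an intensity trend, 0 (1468 unadjusted) with the replicate block, 0 (1329 to 1663 unadjusted) with any array left out and 0 (2764 unadjusted) in a fit over all 35511 probe sets. The trend with robust variances put 1 of the 10 filament genes past the threshold, a count on which nothing rests, since the comparison was used to choose them. Of the 42 partner genes (linkers, lamin partners and chaperones) that setting called 2, Jup and Fnta, beside 2.40% of all genes. Quantile normalisation, median centring, averaging of probe sets, dropping the dimmest genes and the block called 0 of the 10. They also called 0 of the 56 other filament genes and 0 of the partner genes. The trend with robust variances called 0 of the 56 as well. For the block these counts were fixed in advance, since it called 0 of all genes. Without the dimmest genes 8 of the 10 were left. The labels do not say that a replicate number marks a shared culture or day, so the numbers were not used as pairs. Same-numbered arrays had deviations that correlated at -0.102 across genes, which cannot settle whether they were paired. A crossed pairing as a block, added after seeing the data, called 0 genes (2105 unadjusted). Ctcfl lost its call with the block (limma adjusted p = 0.071) and with each array left out (0.539 to 0.649), where its log2 change stayed between 2.59 and 2.65.

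Differences of the 10 genes kept their sign in 34 of 40 values with an array left out. The 6 others belong to Des and Krt7, 1 value each, and to Lmnb1, whose difference was 0 and had no sign to keep. For Krt8, Krt18, Nes, Vim and Lmnb2 the groups did not overlap, so leaving out an array could not change the sign. Nothing rests on this count. The ranges were 0.38 to 0.78 for Krt8, 0.11 to 0.25 for Nes and -0.33 to -0.05 for Krt19. Brightness limits Nes, Krt19, Krt7, Krt18 and Des, which lie near or below the arrays' median. Leaving out Crb3, chosen after seeing the data, changed the Ctcfl minus control difference of the epithelial markers' mean summed level to 4.5, against 11.9 with it. Crb3 had the largest difference of that list and was higher in Ctcfl cells, so a smaller value was fixed in advance.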
